A study of Mus musculus with 2 samples.

Results

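The early response transcription factors of 3 families, Egr1, Egr2, Egr3, Nr4a1, Nr4a2, Nr4a3, Klf4, Klf6 and Klf10, were followed in RNA-seq of regulatory T (Treg) cells, the CD4+ T cells marked by the transcription factor Foxp3. They are 9 of the 20938 genes in the data, were found by their symbols, and were put together after the difference between these same libraries was known. All levels and differences below are therefore a description, with no test. The cells came from the spleens of mice on day 7 after transplantation, with 1 library per group. The first library was from littermate controls, labelled wild type and given as Mettl14 f/f in the study's methods. The second was from Foxp3-Mettl14f/+ cKO mice, in which a Cre driven by Foxp3 removes 1 floxed allele of Mettl14, a subunit of the METTL3-METTL14 enzyme that writes N6-methyladenosine (m6A) on mRNA. Its genotype label reads Foxp3 knockdown. Per the study's methods the recipients were on a C57BL/6J background, were made diabetic with streptozotocin and received BALB/c islets under the kidney capsule. By the same methods the Treg cells were taken with a magnetic CD4+CD25+ kit. The paper's results state that the sequenced cells came from mice without antibody treatment. Age, the number of mice and pooling are not given in the sources used here.

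Early response genes are transcribed within minutes of a stimulus, from factors already present in the cell. In T cells, antigen receptor signals reach them through the Ras-ERK cascade, through serum response factor (SRF) and CREB, and through calcium, NFAT and MEF2. The EGR proteins are zinc finger factors held in check by the corepressors NAB1 and NAB2. The NR4A proteins are orphan nuclear receptors used to read antigen receptor signalling and known to take part in Treg cell fate. KLF factors bind GC-rich elements. Among them KLF6 and KLF10 are induced early by stimulation and by TGF-beta, and KLF4 is known in both myeloid cells and resting lymphocytes.

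Promoter sequences are shown first for the 3 NR4A genes and for Egr2, since these hold the CREB and SRF letters through which early response genes are known to be induced. RefSeq windows (build GRCm38.p6) of 300 bases, from 250 before to 50 after a start site, were at hand for 6 of the 9 genes and not for Egr1, Egr3 or Klf10. The Nr4a1 window is chr15:101266596-101266895 on the plus strand, around a start inside the annotated gene. The Nr4a2 window is chr2:57123954-57124253 on the minus strand. The Nr4a3 window is chr4:48045055-48045354 on the plus strand. Egr2 had 5 windows, for 5 annotated starts, and the others 1 each. The Egr2 window shown, chr10:67537619-67537918 on the plus strand, is around a start inside the annotated gene and was chosen because it holds these letters. Each is written 5′ to 3′ along the gene. Capitals mark TGACG on either strand (read as CGTCA on the other), the core of the CREB element, and in Egr2 also the CArG box bound by SRF.
Nr4a1 promoter: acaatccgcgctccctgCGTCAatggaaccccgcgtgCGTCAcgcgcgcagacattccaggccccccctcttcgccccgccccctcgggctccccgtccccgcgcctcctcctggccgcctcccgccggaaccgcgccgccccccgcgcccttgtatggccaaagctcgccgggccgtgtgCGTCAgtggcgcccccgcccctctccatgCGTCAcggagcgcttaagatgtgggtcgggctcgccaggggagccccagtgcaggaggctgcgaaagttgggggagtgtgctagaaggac
Nr4a2 promoter: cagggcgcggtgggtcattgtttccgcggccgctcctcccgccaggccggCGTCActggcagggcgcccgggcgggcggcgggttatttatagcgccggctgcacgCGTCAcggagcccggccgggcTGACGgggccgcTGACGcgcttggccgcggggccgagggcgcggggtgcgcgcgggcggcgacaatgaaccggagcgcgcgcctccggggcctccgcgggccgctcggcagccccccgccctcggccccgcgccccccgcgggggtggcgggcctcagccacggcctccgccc
Nr4a3 promoter: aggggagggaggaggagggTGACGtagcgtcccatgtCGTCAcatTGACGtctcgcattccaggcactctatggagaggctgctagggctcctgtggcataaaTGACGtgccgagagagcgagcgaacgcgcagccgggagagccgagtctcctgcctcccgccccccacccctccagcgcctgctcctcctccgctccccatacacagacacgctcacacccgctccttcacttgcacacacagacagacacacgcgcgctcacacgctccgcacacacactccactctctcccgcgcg
Egr2 promoter: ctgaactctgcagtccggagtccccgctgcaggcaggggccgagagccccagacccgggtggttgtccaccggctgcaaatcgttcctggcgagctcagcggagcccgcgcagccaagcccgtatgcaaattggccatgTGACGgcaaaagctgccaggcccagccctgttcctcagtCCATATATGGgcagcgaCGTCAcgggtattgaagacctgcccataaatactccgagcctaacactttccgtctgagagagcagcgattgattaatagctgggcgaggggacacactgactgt

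TGACG was present in 5 of the 6 genes with a window, counting Egr2 by any of its 5, and in 20.8% of all 32851 windows of this length. Nr4a1, Nr4a2 and Nr4a3 each held 4 copies, a number reached in 0.231% of all windows. Their windows had GC contents of 72.3%, 81.7% and 64.7%, and windows of like GC content were not compared. In Nr4a1 the copies began at -233, -213, -69 and -40 from the start site, in Nr4a2 at -200, -144, -123 and -111, and in Nr4a3 at -231, -213, -205 and -147. The Egr2 window shown held 2 copies, at -111 and -55, on either side of a CArG box at -72. Of the 5 Egr2 windows, 3 that overlap each other hold these same letters, 1 holds a CArG box without TGACG and 1 holds neither. A CArG box was found in 1.63% of windows and in no other of the 6 genes. The Klf4 window (chr4:55532426-55532725, minus strand) held 1 copy of TGACG at -232, and the Klf6 window (chr13:5861239-5861538, plus strand) held none. The full palindrome TGACGTCA, which contains TGACG, was in 1.79% of windows and in none of the 6. The GC box GGGCGG was in 35.7% of windows and in those of the 5 other genes, but not in the Egr2 window shown, and in 2 of the other Egr2 windows. TATAAA was in Nr4a2 alone and in 13.6% of windows. The EGR site GCGTGGGCG (0.612% of windows), the NR4A site AAAGGTCA (1.51%) and the AP-1 site TGAGTCA (5.20%) were in none of the 6. These are letter matches on both strands and not mapped sites. The NR4A genes shared the count of TGACG but not the difference between libraries given below, and any link of these letters to levels was not tested.

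The libraries held 20239325 reads in genes for the control and 18327535 for the cKO. Levels are the deposited ones, in which the reads of a library share 1 scaling factor, and a change is log2 of the cKO level over the control level with 1 added to each. Intervals are exact binomial 95% intervals on the reads of the 2 libraries. They cover counting error only, not the spread between mice, which 1 library per group cannot show. Mettl14 had 948 reads in the control and 652 in the cKO library, a change of -0.31 (interval -0.45 to -0.16). Foxp3 had 1547 and 1361 reads, a change of 0.05 (-0.06 to 0.15), so that its RNA level does not go with a Foxp3 knockdown. Protein is not measured by these libraries, and the paper reports less FOXP3 on western blots of Treg cells of this genotype. For those blots the paper states no transplantation, unlike for these libraries. The libraries also differed in markers of other cells, with no marker of any list at 0 in either. All 15 B cell markers had cKO levels 1.5 times the control or more (summed level 25245 in the control and 95138 in the cKO), as were all 15 macrophage and monocyte markers (31349 and 66403) and 8 of 12 CD8 T and NK cell markers (8516 and 15900). Of 13 granulocyte markers 3 were higher and 3 lower (256457 and 348452), and 3 of 8 dendritic cell markers were higher (2911 and 4052). 12 of 13 erythroid markers were lower (40661 and 17385), and 2 of 16 T cell core genes were lower (73862 and 59821). The granulocyte sum was above the T cell core sum in both libraries, although the label reads Treg. S100a9 alone held 76931 granulocyte reads in the control and 89733 in the cKO library. Sums over unlike lists do not give numbers of cells. If the 16 T cell core genes are scaled to be equal, all genes shift by 0.33, from a median of -0.04 to 0.29. Values on that scale are read against this shift. The Mettl14 change of -0.31 was about the size of this shift, so Mettl14 was not shown to be lower relative to T cell genes. Many of the 9 factors are also expressed in B cells, macrophages and granulocytes, and the part of these cells in the differences was not tested. In bulk RNA, fewer cells of a type and less RNA per cell cannot be told apart.

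Egr1, Egr3, Nr4a1, Klf4 and Klf6, which are 5 of the 9 factors, were higher in the library from cKO mice by 1.5-fold or more. Egr2, Nr4a3 and Klf10 were higher by less, with intervals above 0, and the interval of Nr4a2 held 0. The filter on low values, a mean of 1 or more over both libraries, left 16659 genes and all 9 members. Of those genes 17.2% were higher by 1.5-fold or more, and 24.2% were lower by as much. These are 2864 and 4028 genes, and on the scale of equal T cell core genes 4981 and 3159. No member was 1.5-fold lower. The members were chosen on this contrast, so their count carries no weight against these shares. Their median change was 0.65, beside -0.04 over all genes. Their summed reads were 8184 in the control and 15398 in the cKO library, or 404 and 840 reads per 1000000.

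**Figure D1:**
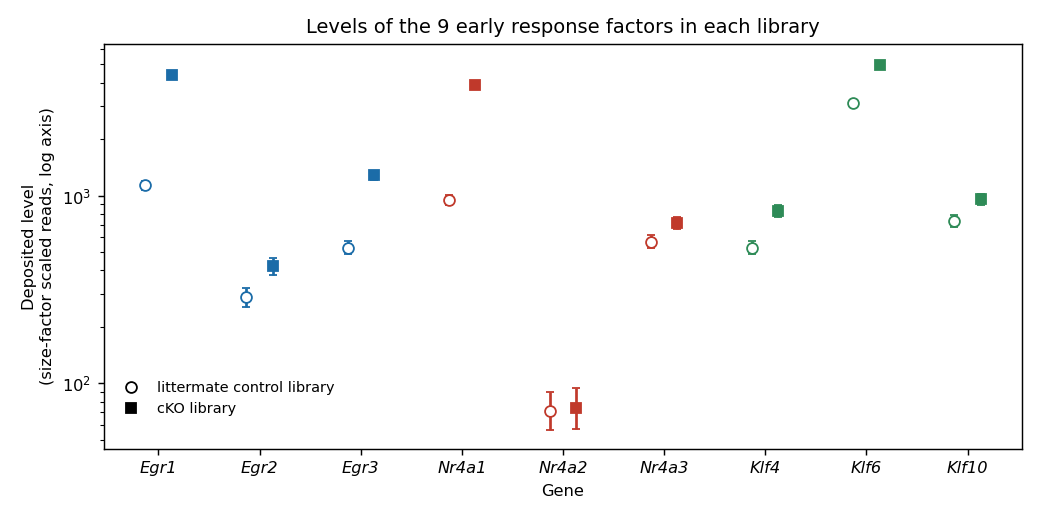
Deposited levels (size-factor scaled reads, log axis) of the 9 factors in the control library (open circles) and the cKO library (filled squares), with exact Poisson 95% intervals for counting error and 1 library per group. Egr1, Egr3 and Nr4a1 are set well apart between the libraries, Klf4 and Klf6 less so, and the Nr4a2 intervals overlap.

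Egr1 was the most changed of the EGR genes. It encodes a zinc finger activator induced through ERK and SRF, and lies at chr18:34859823-34864984. It had 1173 reads in the control library (level 1135) and 3868 in the cKO library (level 4399). The cKO level was 3.88 times the control level, a change of 1.95 (interval 1.86 to 2.05). Among all genes its level stood at the 73.7th percentile in the control and at the 93.8th in the cKO library.

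Egr3, which acts with Egr2 to restrain T cell activation, lies at chr14:70077203-70082614. It had 547 and 1127 reads, or levels of 529 and 1282. The ratio was 2.42 and the change 1.27 (1.13 to 1.43), below that of Egr1 with no overlap of the intervals. Egr2, the partner of Egr3 in anergy, lies at chr10:67535475-67542188. It had 298 and 369 reads, or levels of 288 and 420. The ratio of 1.46 lies just under the threshold, and its interval of 1.25 to 1.70 spans it. The 3 EGR genes thus had separate changes in the order Egr1, Egr3, Egr2, with no interval overlapping its neighbour's. The remaining family gene Egr4 had 0 reads in both libraries.

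The corepressors that bind EGR proteins did not reach the threshold. Nab1 had 2158 and 2120 reads, a change of 0.21 (0.12 to 0.29). Nab2 had 767 and 609 reads, a change of -0.10 (-0.26 to 0.06).

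Nr4a1, whose protein NUR77 is a standard readout of antigen receptor signalling, had the largest change of the 9. It lies at chr15:101254269-101274795. It had 982 reads in the control library (level 950) and 3400 in the cKO library (level 3866). The ratio was 4.07 and the change 2.02 (1.92 to 2.13), an interval that overlaps that of Egr1.

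The other NR4A genes stayed under the threshold. Nr4a3 (NOR1), at chr4:48045153-48086447, had 588 and 629 reads, or levels of 569 and 715, a ratio of 1.26 and a change of 0.33 (0.17 to 0.50). Nr4a2 (NURR1), at chr2:57106830-57124003, was the lowest of the 9 in both libraries. It had 74 and 65 reads, or levels of 71.6 and 73.9, and its change of 0.05 has an interval of -0.46 to 0.55 that holds 0. With library totals as the scale its change was -0.04, the only change of sign among the 9 under any scaling run. The Nr4a1 interval lies wholly above those of Nr4a2 and Nr4a3.

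Both NR4A1 and NR4A2 can pair with retinoid X receptors, while NR4A3 binds DNA alone. Rxra had 348 and 476 reads, a change of 0.68 (0.48 to 0.89), and Rxrb had 1467 and 1274 reads, a change of 0.03 (-0.08 to 0.14). Rxrg had 4 and 0 reads, too few for a fold.

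The 3 KLF members had changes from 0.38 to 0.68, below those of Egr1, Egr3 and Nr4a1. Klf6, a broadly expressed factor, lies at chr13:5861482-5870394 and was the most abundant of the 9 in reads. It had 3218 and 4372 reads, or levels of 3113 and 4972, a ratio of 1.60 and a change of 0.68 (0.61 to 0.74). Klf4, at chr4:55527143-55532466, had 547 and 729 reads, or levels of 529 and 829. Its ratio was 1.57, just inside the threshold, with an interval of 1.40 to 1.75 that spans it. With library totals as the scale the Klf4 change was 0.557, under the threshold of 0.585. The Klf6 change on that scale, 0.5851, was barely above the unrounded threshold of 0.58496. The members at least 1.5-fold higher were then 4 in place of 5. Klf10, which limits SMAD7 and so favours TGF-beta signalling, lies at chr15:38291463-38300706. It had 757 and 839 reads, or levels of 732 and 954, a ratio of 1.30 and a change of 0.38 (0.24 to 0.53).

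On the scale of equal T cell core genes, 8 of the 9 were at least 1.5-fold higher and Nr4a2 alone was not. So were 4981 of all 16659 genes past the filter, whose median change was 0.29. The larger count of members thus comes with a shift given to every gene. The changes on that scale were 2.36 for Nr4a1, 2.29 for Egr1, 1.61 for Egr3, 1.01 for Klf6, 0.98 for Klf4, 0.87 for Egr2, 0.71 for Klf10, 0.66 for Nr4a3 and 0.37 for Nr4a2. The order of the 9 is the same on both scales by construction. Set against the 16 T cell core genes, the members had 10.7 reads per 100 in the control and 29.3 in the cKO library. Against the macrophage and monocyte markers they had 25.3 and 26.4 per 100, but without Lyz2, which held 21710 and 33118 of those reads, 76.5 and 60.9. This value was added after the data were seen. Against the B cell markers they had 31.4 and 18.4. Against the CD8 T and NK cell markers the values were 93.0 and 110, and against the granulocyte markers 3.09 and 5.03. Against the erythroid markers they were 19.5 and 101, and against the dendritic cell markers 272 and 432. The members' reads were thus higher in the cKO library relative to T cell, CD8 T and NK cell, granulocyte, erythroid and dendritic cell genes and lower relative to B cell genes, and relative to macrophage genes the direction depended on Lyz2.

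**Figure D2:**
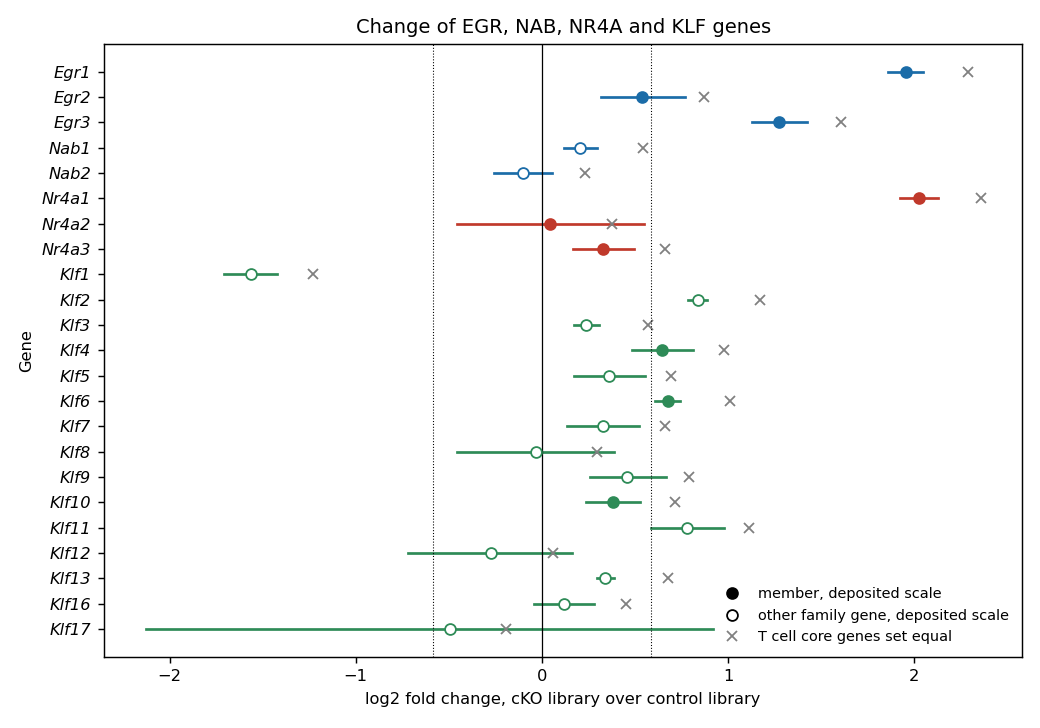
Change (log2, cKO over control library) of the EGR, NAB, NR4A and KLF genes with reads in both libraries, with exact 95% intervals for counting error, filled for the 9 members and open for other family genes. Crosses give the change on the scale of equal T cell core genes, and dotted lines mark 1.5-fold; Nr4a1 at 2.02 and Egr1 at 1.95 lie farthest to the right and Klf1 at -1.56 farthest to the left.

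The make-up of each family does not depend on the scale between libraries. Of the reads of the EGR genes, Egr1 took 58.1% (exact interval 55.9 to 60.3) in the control and 72.1% (70.9 to 73.3) in the cKO library. Egr2 took 14.8% (13.2 to 16.4) and 6.88% (6.22 to 7.59), and Egr3 took 27.1% (25.2 to 29.1) and 21.0% (19.9 to 22.1). Egr4, at 0 of 2018 and 0 of 5364 reads, had exact intervals that reach up to 0.183% and 0.0687%. The share of Egr1 was thus higher in the cKO library and the shares of both others lower.

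In the NR4A family the shift toward 1 gene was wider. Nr4a1 took 59.7% (57.3 to 62.1) of the reads in the control and 83.0% (81.9 to 84.2) in the cKO library. Nr4a3 took 35.8% (33.4 to 38.1) and 15.4% (14.3 to 16.5), and Nr4a2 took 4.50% (3.55 to 5.62) and 1.59% (1.23 to 2.02). Counted per length of transcript, the share of Nr4a1 was 75.7% and 91.2%.

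The KLF family has 17 genes, and most of its reads lay outside the 3 members. Klf6 took 13.1% (12.6 to 13.5) in the control and 15.5% (15.1 to 15.96) in the cKO library. Klf4 took 2.22% (2.04 to 2.41) and 2.59% (2.41 to 2.78), with intervals that overlap narrowly. Klf10 took 3.07% (2.86 to 3.29) and 2.98% (2.79 to 3.19), with intervals that overlap. The larger shifts in this family were outside the members. Klf2, the factor of resting and recirculating T cells, took 19.8% and 26.3%, and Klf1, the erythroid factor, took 7.32% and 1.84%. Klf13 was the most abundant KLF gene in both, with 30.0% and 28.3%.

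**Figure D3:**
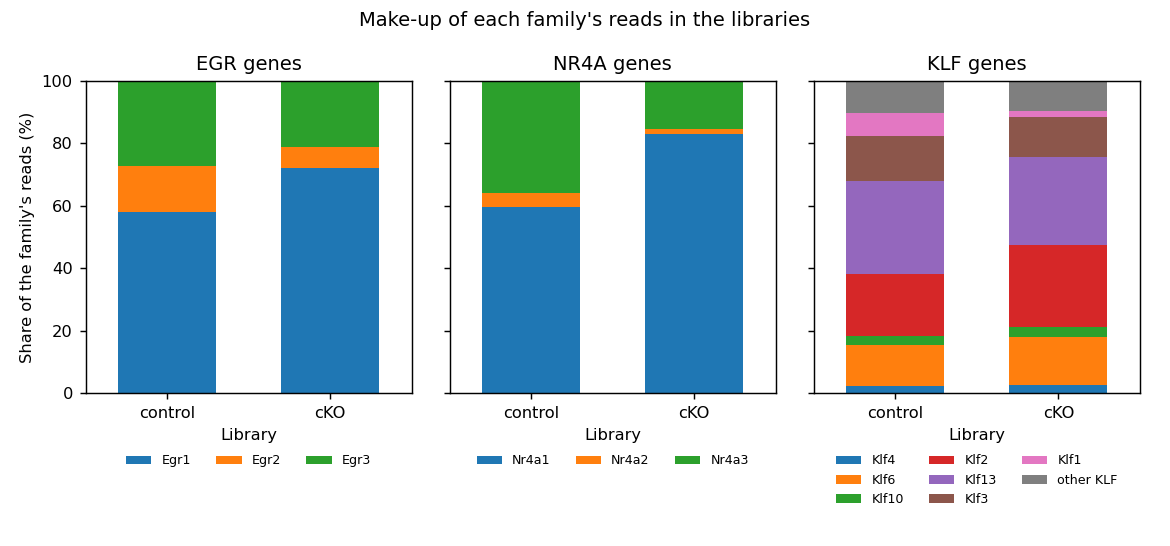
Share of each family's reads (%, linear axis from 0) taken by each gene in the control and cKO libraries, 1 library per group. Egr1 goes from 58.1% to 72.1% of EGR reads and Nr4a1 from 59.7% to 83.0% of NR4A reads. Most KLF reads lie outside Klf4, Klf6 and Klf10 in both libraries.

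Per kilobase of transcript, the order of the 9 levels in the control library was Klf6 (737), Nr4a1 (372), Egr1 (253), Klf10 (241), Klf4 (175), Egr3 (134), Nr4a3 (99.4), Egr2 (97.2) and Nr4a2 (20.1). 2 neighbouring pairs, Egr1 with Klf10 and Nr4a3 with Egr2, had overlapping counting intervals. In the cKO library Nr4a1 (1514) stood first, above Klf6 (1177) and Egr1 (981), with no overlap between these 3. Egr3 (325), Klf10 (313) and Klf4 (274) followed, and neighbours in this trio overlapped. Egr2 (142) and Nr4a3 (125) overlapped as well, and Nr4a2 (20.7) was last. These levels rest on 1 transcript per gene from the annotation.

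The other 14 KLF genes were measured in the same libraries. Klf2, Klf11 and Klf15 were at least 1.5-fold higher and Klf1 was lower, with a median change of 0.28 over the 14. Klf14, with 4 and 0 reads, had too few for a fold. Klf2 had 4880 and 7415 reads, a change of 0.84 (0.78 to 0.89), above the intervals of Klf6 and Klf10. Klf13 had 7391 and 7966 reads, a change of 0.34 (0.30 to 0.39). Klf1 had 1804 and 519 reads, a change of -1.56 (-1.71 to -1.42), alongside 12 of 13 erythroid markers, a list that also holds it. Klf12 had 108 and 76 reads, a change of -0.27 (-0.72 to 0.16). Klf15 had 0 and 37 reads, with a lower end of 3.49 for the interval of its change. Klf11, named here after its values were seen, had 370 and 541 reads, a change of 0.78.

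The transcripts of the signalling routes that lead to these genes were looked at in turn. No gene of the 11 in the Ras-ERK list reached 1.5-fold in either direction, and the list's median was -0.04, that of all genes. Map2k1 (MEK1) had 1275 and 1405 reads, a change of 0.37, and Mapk3 (ERK1) 1564 and 1637 reads, a change of 0.30. Hras had 539 and 337 reads, a change of -0.44. Rasgrp1, the Ras activator of T cells and the most abundant of the list, had 5059 and 4380 reads, a change of 0.03.

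Of the 6 genes for SRF and its cofactors 1 was higher, with a median of 0.33. That gene was Elk1, the ERK-responsive SRF partner, with 320 and 417 reads and a change of 0.61 (0.40 to 0.83). With library totals as the scale none of the list was higher. Mrtfa, an actin-regulated partner, had 3141 and 3635 reads and a change of 0.44. Elk4 had 5537 and 5687 reads and a change of 0.27, and Srf itself had 2016 and 1586 reads and a change of -0.11 (-0.21 to -0.02).

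Of 8 genes for CREB and its coactivators 1 was higher, with a median of 0.20. Crtc2, a coactivator released by dephosphorylation, had 1548 and 2047 reads and a change of 0.64 (0.54 to 0.73). With library totals none of the list was higher. Ep300 and Crebbp, the paired acetyltransferases, had changes of 0.36 and 0.33. Creb1 had 4118 and 3034 reads and a change of -0.21 (-0.28 to -0.14), and Atf1 had a change of -0.06.

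MEF2 factors recruit class IIa histone deacetylases to hold the Nr4a1 promoter silent until calcium signals arrive. Of the 8 genes in this list 3 were higher and none lower, with a median of 0.41. Mef2c had 1354 and 2346 reads, a change of 1.03 (0.93 to 1.12). Mef2c is also a B cell and myeloid gene, and the B cell and macrophage lists given above moved the same way, whose part was not tested. Mef2b had 15 and 34 reads, a change of 1.35 (0.50 to 2.40), and Mef2d, the most abundant, had a change of 0.30. Of 4 NFAT genes past the filter 1 was higher, with a median of 0.41. It was Nfat5, the osmotic stress member, with 3594 and 4753 reads and a change of 0.64. With library totals none was higher. Nfatc1 had 4765 and 6025 reads and a change of 0.57, and Nfatc3, the most abundant, had a change of 0.13.

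Genes linked to the members' known functions in T cells went in both directions. Of 11 anergy genes linked to EGR2 and EGR3, 1 was higher and 2 lower, with a median of 0.24. Sema7a, a membrane semaphorin, had 152 and 293 reads and a change of 1.17 (0.89 to 1.47). Lag3, an inhibitory receptor, had 462 and 181 reads and a change of -1.11 (-1.37 to -0.87). Rnf128 (GRAIL), a ubiquitin ligase of anergic cells, had 109 and 59 reads and a change of -0.64 (-1.13 to -0.18). Crtam had a change of 0.42, and Dgka, the diacylglycerol kinase that dampens Ras signalling and the most abundant of the list, had 14017 and 10702 reads and a change of -0.16.

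Of 8 Treg and exhaustion genes linked to NR4A, 1 was higher and 2 lower, with a median of 0.08. Il2ra, which encodes CD25, had 802 and 1092 reads and a change of 0.68 (0.55 to 0.81). Pdcd1, which encodes PD-1, had 358 and 145 reads and a change of -1.07 (-1.36 to -0.79). Ikzf4 (EOS), a partner of FOXP3, had 287 and 149 reads and a change of -0.71 (-1.01 to -0.42). Ikzf2 (HELIOS), the most abundant, had 2529 and 1850 reads and a change of -0.22, and Havcr2 (TIM-3) had 273 and 321 reads and a change of 0.47.

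Of 8 quiescence and homing genes linked to KLF factors, 1 was higher and 1 lower, with a median of 0.10. Cdkn1a, a cyclin-dependent kinase inhibitor, had 104 and 134 reads and a change of 0.59 (0.22 to 0.98), under the threshold with library totals, TMM, median of ratios or a pseudocount of 5. Its relative Cdkn1c had 23 and 6 reads and a change of -1.57 (-3.29 to -0.37). Il7r had 5931 and 7566 reads and a change of 0.58, just under the threshold. Ccr7 had 2394 and 1973 reads and a change of -0.05. None of the 9 genes of TGF-beta signalling around KLF10 reached 1.5-fold in either direction, with a median of 0.30. Tgfbr1 had a change of 0.47, Tgfb1 of 0.37, Tgfbr2 of 0.30 and Skil of -0.02.

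The counts of these lists depend on the scale. On the scale of equal T cell core genes, 7 of the 14 other KLF genes, 5 of 6 for SRF, 3 of 8 for CREB, 6 of 8 for MEF2 and 2 of 4 for NFAT were 1.5-fold higher. On it 2 of 11 Ras-ERK genes, 5 of 11 anergy genes and 3 of 8 genes linked to NR4A were higher as well. So were 3 of 8 linked to KLF and 5 of 9 around TGF-beta. Of all 16659 genes past the filter, 4981 were higher on that scale. Lower genes went from 2 to 1 in both the anergy and the NR4A list, with Rnf128 (-0.31) and Ikzf4 (-0.38) no longer past the threshold.

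Other early response genes were listed beside the members. Of the 39, 38 passed the filter, of which 28 were at least 1.5-fold higher, with a median change of 0.81. Dusp1, a phosphatase that ends MAP kinase signals, had 1588 and 5320 reads and a change of 1.98 (1.90 to 2.06), inside which the Egr1 value lies. Atf3, a stress-induced factor, had 96 and 318 reads and a change of 1.95 (1.63 to 2.31). Zfp36l1, the most abundant, had 5082 and 7086 reads and a change of 0.71. Arc had 145 and 103 reads and a change of -0.26 (-0.64 to 0.11). Fosl1 had 12 and 0 reads, with an upper end of -1.24 for the interval of its change, and Ccn2, with 3 and 0 reads, had too few for a fold. The summed level of the list was 49973 in the control and 98845 in the cKO library. The list was put together with earlier results of these libraries known, so that its counts are no independent support.

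**Figure D4:**
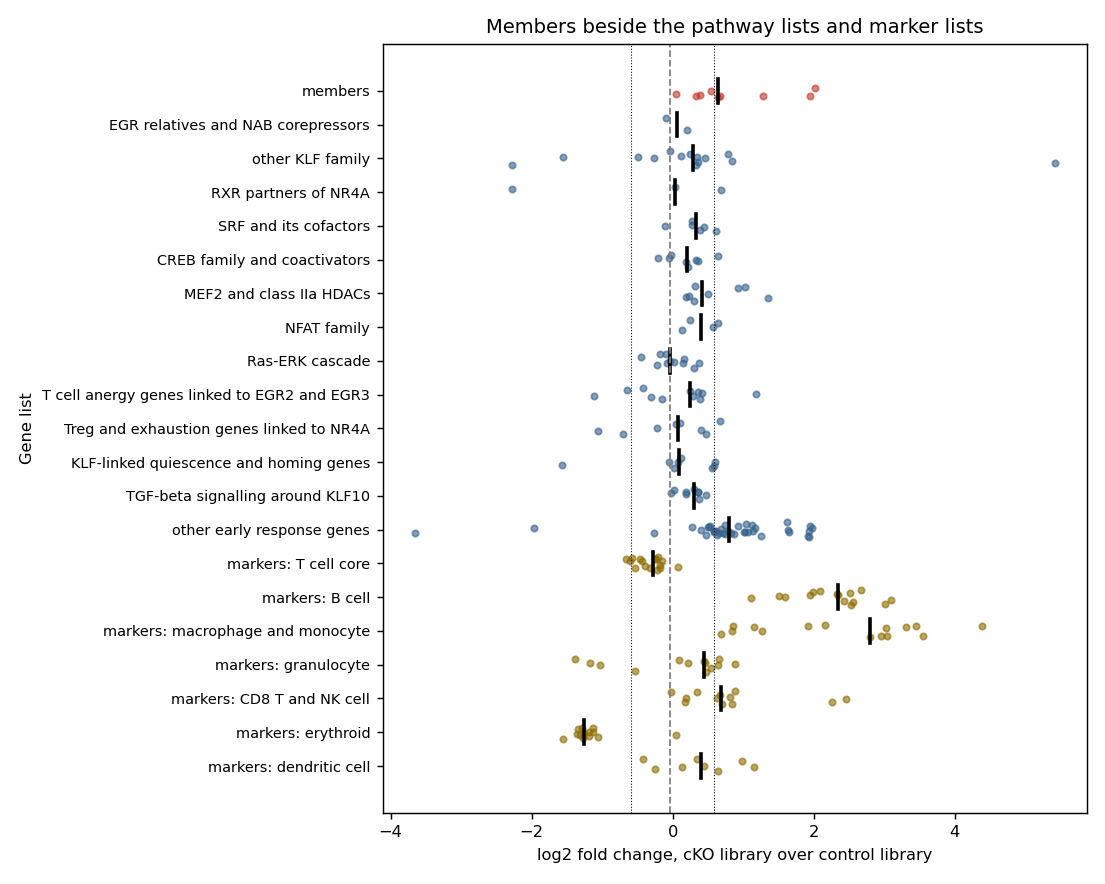
Change (log2, cKO over control library, 1 added to each level) of each gene past the filter in the members, the pathway lists and the marker lists, with list medians as black bars, the median of all genes (-0.04) dashed and 1.5-fold dotted. The members (median 0.65) and other early response genes (0.81) lie to the right of the pathway lists, and the B cell (2.34) and macrophage (2.80) markers lie farther right; the outermost points include genes at 0 in 1 library, whose values depend on the 1 added.

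The EGR and KLF members are compact genes. In the GENCODE annotation of this build the median span of the 9 was 8913 bases, beside 21316 over the 16405 annotated genes past the filter. Of the 9, 8 were below that median. The exception was Nr4a3, at 41295 bases, and Nr4a1 (20527) and Nr4a2 (17174) were nearer the median than the EGR and KLF members. The 3 EGR transcripts had 2 exons each and the NR4A transcripts 8 each, the latter equal to the median of all genes. Transcripts were not short, with a median of 3568 bases beside 2911.

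Their 3′ untranslated regions (UTRs) had a median length of 1326 bases beside 988 over all genes with one. The pentamer ATTTA, the core of AU-rich decay elements, occurred in all 9, from 1 to 7 times, beside a median of 1. Per kilobase of 3′ UTR, 8 of 9 were above the median of all genes (1.34). Nr4a1 had the shortest 3′ UTR of the 9 (543 bases) and the highest density (5.52 per kilobase, the 94.8th percentile), and Klf4 the lowest (1.02). GGACT, a common form of the letters methylated by METTL3-METTL14, occurred from 0.28 to 1.89 times per kilobase of transcript, with a median of 0.67 beside 1.05 over all genes. 4 members were above that median and 5 below, with 8 copies in Klf6 and the fewest being 1. No m6A was measured in these libraries, and a letter match is not a methylated site.

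**Figure D5:**
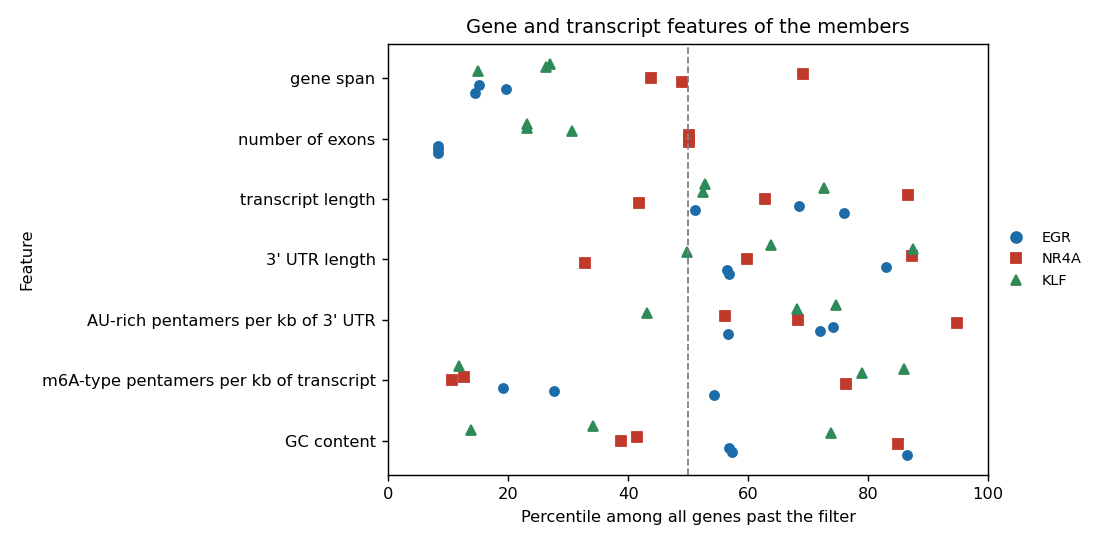
Percentile of each member among all genes past the filter for gene span, exons, transcript length, 3′ UTR length, density of AU-rich pentamers (ATTTA), density of m6A-type pentamers (GGACT) and GC content, coloured by family, with the median dashed. Span lies below the median for 8 of 9 and AU-rich density above it for 8 of 9, while the m6A-type density falls on both sides.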

How the data were processed

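RNA-seq was done on Treg cells of 2 libraries, 1 per group. Per the labels and the study's methods reads were aligned to mm10 with TopHat, while the submitters' processing notes name bcl2fastq 2.0, STAR, StringTie and DESeq2 with no roles. The deposited values are a signal per gene, read counts the authors had divided by 1 factor per library: 100% of values were whole multiples of that factor (tolerance 0.001), and reads were recovered from it. The genotype label of the cKO library, Foxp3 knockdown, differs from the protocol and was kept as a label only.

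Changes are log2 of the levels with a pseudocount of 1, for genes with a mean of at least 1. With 1 library per group there is no test of the groups, and genes at least 1.5-fold apart were counted. Intervals are exact Clopper-Pearson intervals (95%) on recovered reads. An exact binomial count test on those reads, with TMM scaling and Benjamini-Hochberg adjusted p under 0.1, was added after the data were seen; it compares the libraries and not the conditions, and called 2126 genes higher and 2688 lower of 14863 with at least 10 reads. Scripts were tested on simulated data. The members and all gene lists were chosen with earlier results of these data known. Named genes are the members, Mettl14 and Foxp3, and from each list the 2 largest changes in each direction with a mean of at least 10, genes at 0 in 1 library and the most abundant gene; for the marker lists counts and summed levels are given. Some genes that this rule names are not reported here. Gene positions and features are from GENCODE vM21 (GRCm38, the mm10 build), which matched 98.5% of the filtered genes by symbol, on 1 transcript per gene. Promoters are from RefSeq (GRCm38.p6). Python 3.11.15, scipy 1.17.1, pandas 2.3.3, statsmodels 0.14.6, matplotlib 3.10.9, R 4.3.3 and edgeR 4.0.16 were used. Alternatives were pseudocounts, filters, 4 other scalings and the fold threshold.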

Additional observations from a re-analysis of the deposited data

How the results depend on the processing

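With 1 library per group no replicate could be left out, and counting intervals say nothing of the spread between mice. No paired analysis was possible because each group has 1 library. On the scale of equal T cell core genes, 8 members and 4981 of all genes were at least 1.5-fold higher and the members' median change was 0.98. At a threshold of 2-fold, 3 members and 1722 of all genes were higher. With library totals as the scale, 4 members and 2518 of all genes were at least 1.5-fold higher. With a minimum mean level of 10, 2035 of all genes were lower, and with only genes above 0 in both libraries 1904 were, since fewer genes are then counted. Other pseudocounts, filters and scalings kept the member and all-gene counts within 1.5 times, not those of every list. With library totals the SRF, CREB, NFAT and KLF-linked lists each had 0 higher genes in place of 1, 4 T cell core genes were lower in place of 2, and 1 granulocyte marker was higher in place of 3. With a minimum mean of 10 the other early response list had 0 lower genes in place of 2 and the other KLF list 1 in place of 2. No result among those run changed direction past its threshold. The count test, added after the data were seen, called 2126 genes higher and 2688 lower. Depth limits Nr4a2, with 74 and 65 reads.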
